A study of Mus musculus with 9 samples.

Results

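The genes described here are 10 transcription factors of the mesenchyme of the reproductive tract. The measurement is where peaks of the chromatin remodelers PBRM1 and BRG1 were called at these genes in oviductal smooth muscle. The members were given by name, with no measured value in the rule, though earlier results of these data were known: *Nr2f2*, *Gata2*, *Gata4*, *Gata6*, *Wt1*, *Tcf21*, *Osr1*, *Osr2*, *Tbx18* and *Emx2*, which are 10 of the 21938 protein-coding genes examined. For each gene, every peak whose summit lay in the gene body or within 20 kb of it was collected. A peak was called an own-promoter peak when its summit lay within 2 kb of an annotated start of that gene, and distal otherwise.

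These factors belong to the regulatory program of the urogenital mesenchyme, the embryonic tissue from which the stroma and the muscle coat of the oviduct and uterus arise. NR2F2 (COUP-TFII) is a nuclear receptor of the uterine stroma, GATA2 acts with the progesterone receptor in the uterus, and WT1, OSR1, EMX2 and TCF21 are needed for the formation of the kidney, gonads or genital ducts. SWI/SNF complexes use ATP to move or evict nucleosomes. BRG1 is one of their ATPases and is shared by several forms of the complex, whereas PBRM1 (BAF180) is a subunit of the PBAF form.

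ChIC-Seq, in which an antibody guides a micrococcal nuclease to chromatin, was carried out on wild-type (WT) primary mouse oviductal muscle cells taken on D2 (day 2) of pregnancy from females 8 to 12 weeks old that had mated with stud males. The cells had been dispersed from whole oviducts, filtered, plated for some hours and fixed, without a sort for muscle cells. The PBRM1 and BRG1 groups had 3 replicate libraries each, and the 3 IgG control libraries were not analysed here. Per the labels, genotype, day and source were the same throughout and only the antibody differed. The labels do not say whether replicates came from separate mice, so p-values measure only the spread between libraries, which may be technical.

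The PBRM1 libraries held between 18126049 and 23992352 fragments and the BRG1 libraries between 14284532 and 15897724, so each peak height (pileup, the number of fragments over the summit) was expressed as FPM, fragments per 1000000 fragments of its library. The weakest called peak of any replicate list had 0.333 to 0.420 FPM at its summit, which came to 6 to 8 fragments. Across all 12830 regions with a peak in all 6 replicate lists, the median log2 difference, PBRM1 minus BRG1, was -0.48, a 1.40-fold higher BRG1 value. Differences at the 10 genes are therefore also given relative to the median of each library. Over all protein-coding genes, 41.4% had an own-promoter peak in all 6 lists and 34.9% had none. Of the smooth muscle marker genes, 5 of 8 had an own-promoter peak in all 6 lists, *Myh11* had one in 1 list and *Cnn1* in none. The immune markers (4 genes) had none in any list, no epithelial marker of 7 had one in all 6 lists and 4 had none, and among endothelial and fibroblast markers *Tek* and *Vim*, each 1 of 4, had one in all 6. Peaks were called without a control and can include open chromatin cut regardless of antibody, which was not tested. A peak is also not a measure of expression.

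Genomic sequence at the strongest or most often called regions is shown first, because the results below turn on these sites. Each run is from the plus strand of GRCm38.p6 (RefSeq assembly), and the windows of *Nr2f2*, *Osr2*, *Osr1* and *Emx2* are centered on the median summit. The *Nr2f2* site is intronic at chr7:70361704-70361854, the *Osr2* site is the promoter at chr15:35295952-35296102, and the *Osr1* site (chr12:9584967-9585117) and the *Emx2* site (chr19:59469148-59469298) are intergenic. For *Gata2* the 150 bases directly before the internal start are shown (chr6:88198184-88198333), since the summit itself lies in exon sequence. Capitals mark the only match among the 8 motifs searched, a CArG box, the binding element of serum response factor in muscle genes.
Nr2f2 intronic region: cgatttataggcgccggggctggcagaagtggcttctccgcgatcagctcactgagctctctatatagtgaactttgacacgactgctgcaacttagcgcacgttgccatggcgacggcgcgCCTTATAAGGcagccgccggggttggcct
Gata2 before the internal start: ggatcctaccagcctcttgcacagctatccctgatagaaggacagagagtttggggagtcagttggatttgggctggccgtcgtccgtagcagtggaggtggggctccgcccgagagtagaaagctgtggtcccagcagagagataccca
Osr2 promoter region: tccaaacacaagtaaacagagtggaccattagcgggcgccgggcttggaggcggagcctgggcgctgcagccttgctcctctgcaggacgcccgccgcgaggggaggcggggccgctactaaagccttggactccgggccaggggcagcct
Osr1 downstream region: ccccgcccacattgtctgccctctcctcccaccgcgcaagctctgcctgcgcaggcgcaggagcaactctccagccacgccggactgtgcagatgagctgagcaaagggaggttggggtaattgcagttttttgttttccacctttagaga
Emx2 downstream region: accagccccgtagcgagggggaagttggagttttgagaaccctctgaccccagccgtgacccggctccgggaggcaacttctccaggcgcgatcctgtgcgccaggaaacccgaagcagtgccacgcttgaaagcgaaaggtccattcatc

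The first comparison asked how often the promoters of the 10 genes carried a peak, and in how many of the replicate lists. Only *Nr2f2* and *Gata2* had an own-promoter peak in all 6 replicate lists, 2 of 10 against 41.4% of all protein-coding genes. *Gata4* was the only member with none, where 34.9% of all genes had none. The remaining 7 of 10 had a peak in some lists and not in others, a class that held 23.7% of all genes. *Wt1*, *Osr2* and *Tbx18* had one in 5 lists, *Osr1* in 4, *Gata6* in 3, and *Tcf21* and *Emx2* in 1 list each. The median was 4.5 lists for the 10 genes and 4.0 for all protein-coding genes.

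**Figure D1:**
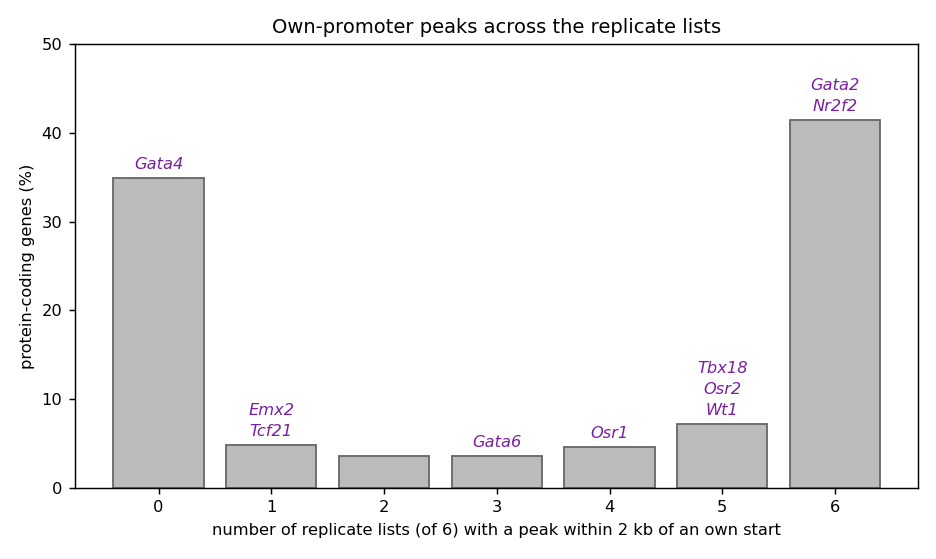
Bars show the percentage of protein-coding genes (y axis) by the number of replicate lists, of 6, that held a peak within 2 kb of an own start (x axis), and the names mark the 10 members. Most genes were at 0 or 6 lists, whereas 7 of the 10 members lay between.

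By antibody, 5 of 10 members had an own-promoter peak in all 3 PBRM1 lists (43.8% of all genes): *Nr2f2*, *Gata2*, *Wt1*, *Osr2* and *Tbx18*. For BRG1 the count was 3 of 10 (49.6% of all genes): *Nr2f2*, *Gata2* and *Osr1*. The BRG1 count rested on single libraries, since it rose to 5 without BRG1 replicate 2 (53.1% of all genes) and to 5 without BRG1 replicate 3 (51.7%). With peaks of at least 5 on the -log10 q scale, the PBRM1 count fell to 1, which was *Nr2f2* (28.8% of all genes), and the BRG1 count was 2, *Nr2f2* and *Gata2* (38.1%). With summits within 1 kb of a start, *Nr2f2* was lost from both counts, which became 4 for PBRM1 (41.5% of all genes) and 2 for BRG1 (47.8%). Each library alone had an own-promoter peak at 5 to 7 of the 10 genes, with a mean of 5.67 ± 1.15 for PBRM1 and 6.33 ± 1.15 for BRG1 (SD, n = 3; two-sided exact permutation p = 1.0, where the smallest possible p is 0.1).

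In the lists called on the pooled replicates, all 10 genes had an own-promoter peak for both antibodies, against 63.5% of all genes (65.4% for PBRM1 and 67.3% for BRG1 alone). Of the 44 pooled PBRM1 peaks in the 10 windows, 7 overlapped a peak in all 3 PBRM1 replicate lists (15.9%, beside 19.0% of the whole list) and 20 overlapped none (45.5%, beside 43.9%). Of the 48 pooled BRG1 peaks, 3 overlapped a peak in all 3 BRG1 lists (6.25%, beside 19.3%) and 19 overlapped none (39.6%, beside 43.3%).

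The windows held 15, 14 and 13 peaks in the PBRM1 replicates 1, 2 and 3 and 18, 13 and 20 in the BRG1 replicates. The ranges overlapped, with a mean of 14.0 ± 1.0 for PBRM1 and 17.0 ± 3.61 for BRG1 (SD, n = 3; difference -3.0; two-sided exact permutation p = 0.4). Joined over the 6 lists, these peaks formed 40 regions, of which 16 were at own promoters and 24 were distal. A peak in all 6 lists was found at 3 of the 40 regions (7.50%, beside 15.5% of all regions of the genome), and 18 regions came from a single list (45.0%, beside 47.0%). Peaks of PBRM1 alone formed 8 regions, peaks of BRG1 alone 16, and both antibodies shared 16. Over all 82959 regions of the genome, 26.7% were of PBRM1 alone, 30.4% of BRG1 alone and 42.9% of both.

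**Figure D2:**
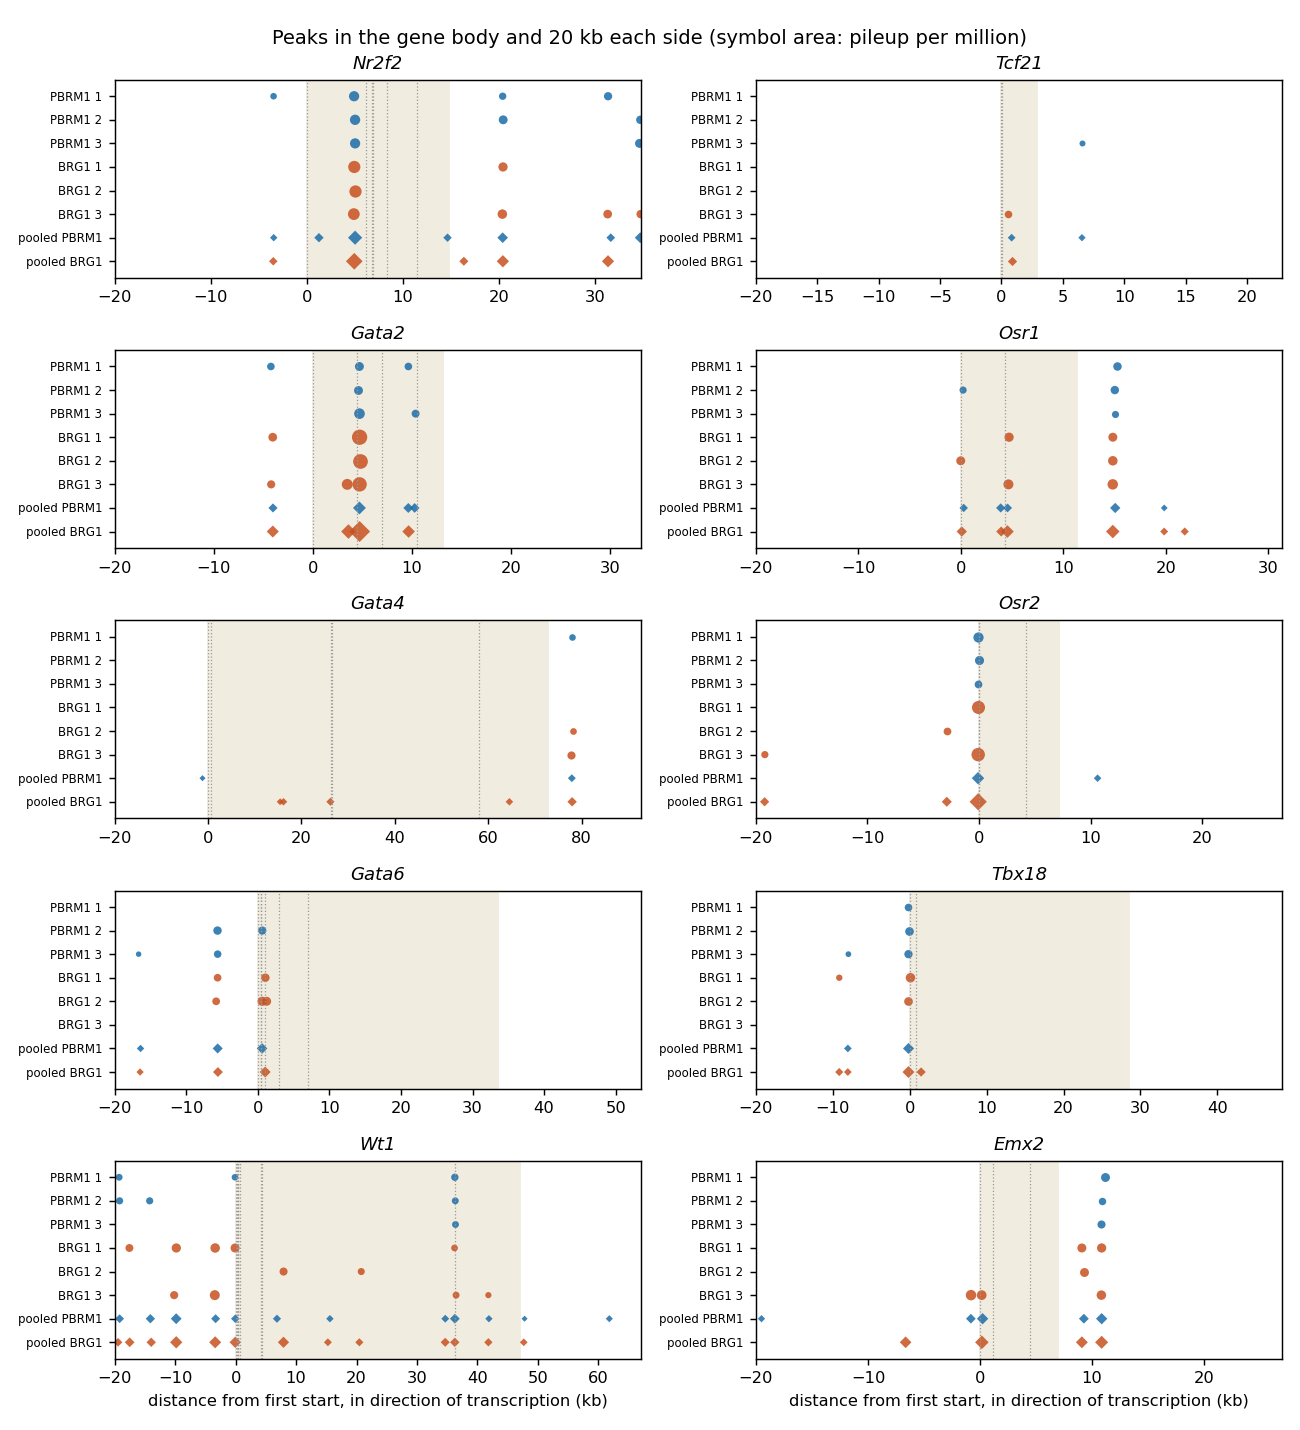
Each panel plots the summits of all peaks of 1 gene against the distance from its most upstream start in kb (x axis), with a row for each replicate list (circles) and pooled list (diamonds) of PBRM1 (blue) and BRG1 (orange). Symbol area is proportional to pileup in FPM, shading is the gene body and dotted lines are annotated starts. *Nr2f2*, *Gata2* and *Osr1* each have a column of symbols in all 6 replicate rows, and the replicate rows of *Gata4* are empty in the gene body, where 4 pooled BRG1 peaks lie.

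*Nr2f2*, which encodes an orphan nuclear receptor needed in uterine stroma for implantation, had the most even replicate values. Its six-list region (chr7:70361493-70362245, 753 bp) lay in an intron, 4956 bp downstream of the most upstream start and 1186 bp before an internal protein-coding start. The pileup was 1.47, 1.49 and 1.46 FPM in PBRM1 replicates 1, 2 and 3 and 2.08, 2.10 and 1.93 in BRG1 replicates 1, 2 and 3. All 3 BRG1 libraries lay above all 3 PBRM1 libraries. This arrangement was common: it held for 56.8% of all regions with a peak in all 6 lists, and for 13.5% of them after centering on the library medians.

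In the fit with limma across all 12830 such regions, the *Nr2f2* difference was -0.47 (log2, PBRM1 minus BRG1, SE 0.19, adjusted p = 0.0324), 1.38-fold higher BRG1. Relative to the library medians the difference was 0.00 (SE 0.17, adjusted p = 0.998), so the ratio of BRG1 to PBRM1 at *Nr2f2* was that of the median region. The region of this gene was strong for both, with 25.8% of the regions higher in mean PBRM1 and 31.3% higher in mean BRG1. No replicate list had a peak within 2 kb of the most upstream start, whose flanking 0.50 kb had the lowest CpG ratio of the 10 genes (0.220, observed over expected CpG). The 151 bp printed above for the intronic region held 14 CpG dinucleotides and a CpG ratio of 1.07. The CArG box in it began at base 123 of the printed run, and 2.78% of all regions with a peak in all 6 lists held this motif in the 0.50 kb around the summit. A distal region of *Nr2f2*, 20391 bp downstream and near starts of the noncoding genes Gm44946 and Gm44948, had peaks at 0.758 and 1.10 FPM in PBRM1 replicates 1 and 2 and at 1.20 and 1.26 in BRG1 replicates 1 and 3. A second, 34714 bp downstream in an intron of Gm29683, was also called in 4 lists, with overlapping values of 0.993 and 1.13 in PBRM1 replicates 2 and 3 and 1.20 and 0.998 in BRG1 replicates 1 and 3.

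*Gata2*, a zinc finger factor of the progesterone response and of blood progenitors, carried the largest difference between the antibodies among the 3 member regions tested. Its region (chr6:88198253-88198837, 585 bp) covered the internal start at 88198334, and no replicate list had a peak within 2 kb of the most upstream start. The pileup was 1.11, 1.10 and 1.58 FPM in PBRM1 replicates 1, 2 and 3, from 22, 20 and 38 fragments. In BRG1 replicates 1, 2 and 3 it was 3.27, 3.01 and 2.86, from 52, 43 and 43 fragments. The groups did not overlap, and the lowest BRG1 library (2.86) was above the highest PBRM1 library (1.58). The same order held for 56.8% of all regions with a peak in all 6 lists.

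The *Gata2* difference was -1.29 (log2, SE 0.19, limma adjusted p = 2.02e-07), 2.44-fold higher BRG1, and 0.164% of all tested regions had a lower value. BRG1 was called higher at 52.9% of regions and PBRM1 at 0.413% on this scale. Relative to the library medians it was -0.82 (SE 0.17, adjusted p = 0.00404), 1.76-fold higher BRG1, where 2.45% of regions were called higher for BRG1 and 2.24% for PBRM1. Differences tended to be lower at regions of higher level (Spearman rho -0.40 across 12830 regions of the same 6 libraries). Among the 2924 regions within 0.25 log2 units of the mean level of *Gata2* the median difference was -0.60, and 0.0684% had a lower difference than *Gata2*. On the deposited fold enrichment over local background, the *Gata2* difference was -0.45 and did not pass (adjusted p = 0.0789, with 10.7% of regions called higher for BRG1). In the pooled BRG1 list the *Gata2* peak ranked 2762 by q, with 2.87% of the list stronger, and in the pooled PBRM1 list it ranked 14306, with 15.1% stronger. The distal region of *Gata2*, 4206 bp upstream and near a start of the noncoding gene Gm38708, was weaker, with 0.808 FPM in PBRM1 replicate 1, 1.07 and 0.931 in BRG1 replicates 1 and 3 and no peak in the other lists.

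**Figure D3:**
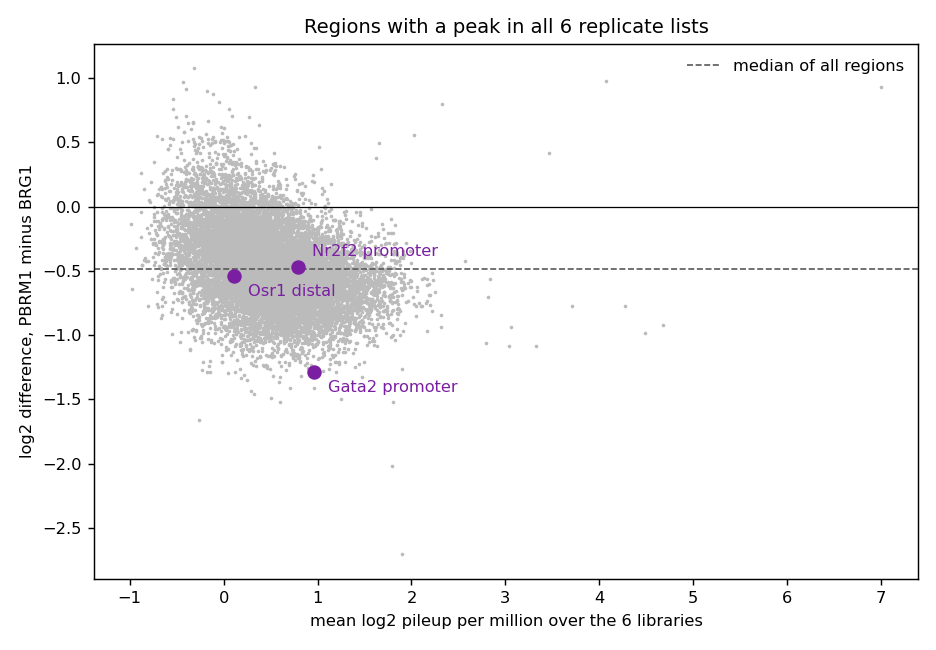
Each grey point is 1 of the 12830 regions with a peak in all 6 replicate lists, with the mean log2 FPM over the 6 libraries on the x axis and the log2 difference, PBRM1 minus BRG1, on the y axis; the dashed line is the median of all regions at -0.48. *Nr2f2* (-0.47) and the *Osr1* distal region (-0.54) lie near this line and *Gata2* (-1.29) lies below nearly all points.

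The other GATA factors differed from *Gata2* in support. *Gata6*, expressed in mesenchyme and smooth muscle, had own-promoter peaks in PBRM1 replicate 2 and in BRG1 replicates 1 and 2. Its strongest own-promoter region (11052551 to 11052830 on chromosome 18) had 0.938 FPM in PBRM1 replicate 2, 1.19 in BRG1 replicate 2 and no peak in the other lists. Upstream of *Gata6*, 5626 bp before the most upstream start and near a start of the noncoding gene 1010001N08Rik, a region had peaks in 4 lists, at 0.993 and 0.792 in PBRM1 replicates 2 and 3 and at 0.818 and 0.840 in BRG1 replicates 1 and 2. The values of the antibodies overlapped there.

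*Gata4*, the GATA factor of the gonadal and heart mesoderm, had no own-promoter peak in any replicate list. The single region in its window, 78014 bp downstream of the most upstream start, lay at the start of the neighbor *Neil2*, a DNA glycosylase gene. It had a peak in PBRM1 replicate 1 (0.606 FPM) and in BRG1 replicates 2 and 3 (0.630 and 0.931). The pooled own-promoter peaks of *Gata4* overlapped no replicate peak, and 94.9% of the pooled PBRM1 list and 64.2% of the pooled BRG1 list were stronger.

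The zinc finger genes *Osr1* and *Osr2*, a pair of odd-skipped homologs that pattern intermediate mesoderm, limb and palate, had their best supported region at different places, distal at *Osr1* and at the promoter in *Osr2*. At *Osr1*, the promoter was called in PBRM1 replicate 2 and in all 3 BRG1 lists, but not at the same place. BRG1 replicates 1 and 3 had their peak at the internal start (1.20 and 1.40 FPM), whereas BRG1 replicate 2 (1.12) and PBRM1 replicate 2 (0.717) had theirs at the most upstream start, which lies beside a start of 1700022H16Rik. No single *Osr1* promoter region was therefore found in more than 2 lists.

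The region of *Osr1* with a peak in all 6 lists was intergenic (chr12:9584617-9585455, 839 bp), 14926 bp downstream of the most upstream start. Among the 10 genes only *Osr1* had a distal region of this kind in its window, against 39.5% of all protein-coding genes. Its pileup was 1.01, 0.993 and 0.709 FPM in PBRM1 replicates 1, 2 and 3 and 1.13, 1.26 and 1.53 in BRG1 replicates 1, 2 and 3. All 3 BRG1 libraries were above all 3 PBRM1 libraries, as at 56.8% of all regions with a peak in all 6 lists. The difference was -0.54 (log2, SE 0.22, limma adjusted p = 0.0328), 1.45-fold. Relative to the library medians the difference was -0.07 (SE 0.21, adjusted p = 0.870). The two-sided exact permutation p was 0.1 at each of the *Nr2f2*, *Gata2* and *Osr1* regions, the smallest that 3 against 3 libraries allow.

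At *Osr2* the peak was at the promoter itself (chr15:35295746-35296246), 71 bp before the start. PBRM1 replicates 1, 2 and 3 had 1.47, 1.16 and 0.834 FPM. BRG1 replicates 1 and 3 had 2.39 and 2.53, and BRG1 replicate 2 had no called peak. The summits of BRG1 replicates 1 and 3 and of the pooled BRG1 list fell on the same base, and there the pooled pileup of 94 fragments leaves 18 for BRG1 replicate 2, or 1.26 FPM. Pooled pileup equaled the sum over replicates at all 59 BRG1 summits shared by the 3 replicates and the pooled list. This value is below the other BRG1 libraries and below PBRM1 replicate 1, so the antibodies overlapped at *Osr2* once it was counted. The distal regions of *Osr2* came from 1 BRG1 library each, and the one described by rule, 2879 bp upstream, had 0.840 FPM in BRG1 replicate 2.

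**Figure D4:**
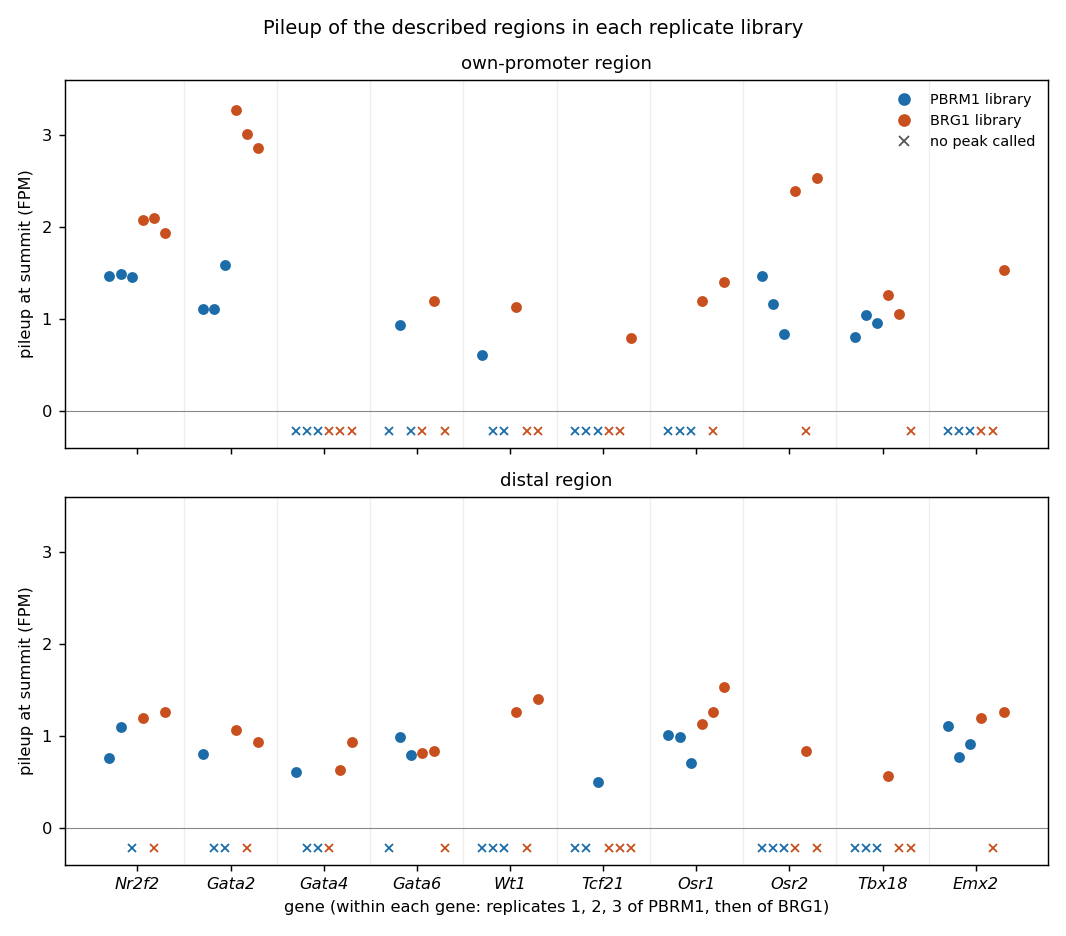
Points give the pileup at the summit in FPM (y axis) in each replicate library of PBRM1 (blue) and BRG1 (orange) for each gene (x axis). The top panel has the own-promoter region of highest mean and the bottom panel the distal region found in the most lists. Crosses below 0 mark libraries without a called peak, whose value is not shown. At *Gata2* the BRG1 libraries (2.86 to 3.27) stand above the PBRM1 libraries (1.10 to 1.58), as at 56.8% of all regions with a peak in all 6 lists. *Gata4*, *Tcf21* and *Emx2* have promoter crosses in at least 5 libraries.

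*Wt1*, which encodes a zinc finger factor of mesothelium, gonad and kidney, had own-promoter peaks in 5 lists, but these were mostly at an internal start. That region (chr2:105162670-105163040), singled out after its values were seen because the count rests on it, was 36335 bp downstream of the most upstream start, at a start annotated only for a retained-intron transcript. Its pileup was 0.758, 0.662 and 0.667 FPM in PBRM1 replicates 1, 2 and 3 and 0.629 and 0.665 in BRG1 replicates 1 and 3, with overlapping values. The own-promoter region of highest mean, 100 bp before the most upstream start and at the start of the antisense gene *Wt1os*, had a peak in only PBRM1 replicate 1 (0.606) and BRG1 replicate 1 (1.13). When only starts of protein-coding transcripts were counted, *Wt1* no longer had a peak in all 3 PBRM1 lists and the PBRM1 count of members fell from 5 to 4.

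Upstream of *Wt1*, peaks were spread through the introns of *Wt1os*. A region 3411 bp before the most upstream start, at starts of the noncoding genes Gm27538, Gm27636 and Gm27715, had BRG1 peaks in replicates 1 and 3 (1.26 and 1.40 FPM) and none for PBRM1 in the replicate lists, although the pooled PBRM1 list had a peak there (0.565 FPM). Another, 19226 bp upstream, had peaks in PBRM1 replicates 1 and 2 (0.657 and 0.717) and none in the BRG1 replicate lists. The pooled BRG1 list had a peak there (0.531 FPM). The strongest pooled peaks of *Wt1* in both lists were 9826 bp (PBRM1) and 9823 bp (BRG1) upstream, and the pooled PBRM1 one overlapped no PBRM1 replicate peak. *Wt1* had 12 pooled PBRM1 and 13 pooled BRG1 peaks, the most of the 10 genes, in a window of 87.1 kb.

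*Tbx18*, a T-box gene of ureteral and epicardial mesenchyme that gives rise to smooth muscle, had its promoter region (chr9:87731086-87731659) 165 bp before the start, in an exon of the overlapping noncoding gene D030062O11Rik. The pileup was 0.808, 1.05 and 0.959 FPM in PBRM1 replicates 1, 2 and 3 and 1.26 and 1.05 in BRG1 replicates 1 and 2. The lower BRG1 value was next to the highest PBRM1 value, and BRG1 replicate 3 had no peak. The distal regions of *Tbx18* came from 1 list each, near the noncoding gene Gm37374, with 0.459 FPM in PBRM1 replicate 3 and 0.566 in BRG1 replicate 1.

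*Emx2*, a homeobox gene required for the Müllerian duct, was one of the genes whose promoter was rarely called. BRG1 replicate 3 alone had own-promoter peaks, 805 bp before the most upstream start (1.53 FPM) and 145 bp after it (1.33), both beside starts of the antisense gene *Emx2os*. Downstream, 10851 bp from the most upstream start, an intergenic region (chr19:59469026-59469657) had peaks in 5 lists. PBRM1 replicates 1, 2 and 3 had 1.11, 0.772 and 0.917 FPM there and BRG1 replicates 1 and 3 had 1.20 and 1.26. BRG1 replicate 2 had no called peak. The pooled BRG1 summit fell on the same base as that of BRG1 replicate 1 and had 54 fragments. BRG1 replicates 1 and 3 had 19 each at their own summits. The fragments left for BRG1 replicate 2 put it narrowly above the highest PBRM1 library (1.11 FPM). The BRG1 libraries were thus all above the PBRM1 libraries, an order found at 56.8% of all regions with a peak in all 6 lists. Over the called values the difference was -0.41 (log2, PBRM1 minus BRG1), and -0.015 relative to the library medians. The pooled PBRM1 peak at this site overlapped peaks in all 3 PBRM1 lists and ranked 16144 by q (17.1% of the list stronger). Pooled pileup was no lower at the *Emx2* promoter, with 56 fragments for PBRM1 and 58 for BRG1, beside 56 and 54 at this site. Fold enrichment over local background was lower at the promoter (2.74 for PBRM1 and 2.85 for BRG1, beside 3.91 and 3.68).

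*Tcf21*, a basic helix-loop-helix factor of fibroblast and mesothelial progenitors, was the least supported with *Gata4*. It had 1 own-promoter peak, in BRG1 replicate 3 (0.798 FPM), 565 bp inside the gene in coding sequence, and 1 distal peak, in PBRM1 replicate 3 (0.500). The strongest pooled peaks of *Tcf21* had 62.2% of the PBRM1 list and 51.1% of the BRG1 list above them.

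Only 3 member regions had values in all 6 libraries. In a comparison added after the data were seen, 10 member regions had a peak in at least 2 lists of each antibody, and a library without a peak was left out of the value. Their median difference was -0.42, beside -0.42 over all 20995 such regions, and 8 of 10 were negative. Relative to the library medians their median was -0.041, beside -0.018 over all such regions, and 6 of 10 were negative. Both medians over all such regions were negative, so most of those regions were negative too. The counts of negative member regions therefore say little. No calls are drawn from these values, because a library enters only where its peak was called. At *Osr2* this left out the lowest BRG1 library.

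Promoter composition of the 10 genes was close to that of other genes. The CpG ratio in the 0.50 kb around the most upstream start had a median of 0.573 (range 0.220 to 0.866) and 0.586 for all protein-coding genes, and 4 of 10 reached 0.6, beside 49.0% of genes. Of all genes that reached 0.6, 66.8% had an own-promoter peak in all 6 lists, and of the 4 members that did (*Gata2*, *Osr2*, *Tbx18* and *Emx2*) only *Gata2* had. The *Gata2* peak was at an internal start, 4443 bp downstream of the start around which the ratio was measured. Distal peaks per 100 kb of window and library had a median of 1.04 for the 10 genes and 1.42 for all genes, with *Nr2f2* highest at 3.04 and *Tcf21* lowest at 0.389.

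Motifs were counted on both strands in 0.50 kb around the summits of the 40 regions. The AP-1 element TGANTCA was in 8 of 40. It was in 4 of 24 distal regions, beside 54.6% of all distal regions with a peak in all 6 lists, and in 4 of 16 promoter regions, beside 11.04% of all promoter regions of that kind. The homeodomain core TAATTA was in 5 of 40 (12.5%, beside 5.07% of all such regions) and the CArG box in 3 (7.50%, beside 2.78%). AGGTCA of NR2F receptors was in 9 (22.5%, beside 22.6%), AGATAA of GATA factors in 4 (10.0%, beside 12.5%), the E-box CAGCTG in 4 (10.0%, beside 28.9%), the TEAD element GGAATG in 10 (beside 26.9%) and AGGTGT of T-box factors in 8 (beside 16.4%). The member regions include many found in only 1 list, so the shares are set against a more strongly supported class. They are also mostly distal (24 of 40), whereas that class has 8344 promoter and 4486 distal regions. By class, the homeodomain core was in 2 of 24 distal regions (beside 8.85%) and 3 of 16 promoter regions (beside 3.03%). The TEAD element was in 7 of 24 distal regions (beside 41.5%) and 3 of 16 promoter regions (beside 19.0%). Of the 3 six-list member regions, *Gata2* held an E-box and a TEAD element, *Nr2f2* a CArG box and a TEAD element, and *Osr1* a T-box core.

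Relatives of the members and other genes of the duct mesenchyme were counted in the same way. Among 11 family members outside the 10, *Gata3* alone had an own-promoter peak in all 6 lists, 5 had none (*Nr2f1*, *Gata1*, *Tcf15*, *Tbx22* and *Emx1*) and 5 lay between. Among 22 other genes of the Müllerian duct and tract mesenchyme, 5 had a peak in all 6 lists. These were the homeobox genes *Lhx9* and *Meis2*, the GATA cofactor genes *Zfpm1* and *Zfpm2*, and the progesterone receptor gene *Pgr*. None was called for 6 of them (*Pax2*, *Pax8*, *Wnt7a*, *Amhr2*, *Hoxa13* and *Nr5a1*), several of which are genes of the duct epithelium or gonad, and 11 lay between. The median number of lists was 1.0 for the relatives and 2.0 for the other tract genes, beside 4.5 for the 10 members and 4.0 for all protein-coding genes. Of all protein-coding genes, 41.4% had a peak in all 6 lists and 34.9% had none.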

How the data were processed

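ChIC-Seq peak lists of 3 PBRM1 and 3 BRG1 libraries and 2 pooled lists were used. Per the labels, the authors named cutadapt, Bowtie2, MACS2 and GRCm38.p5. Per the file headers, narrow peaks came from MACS 2.2.7.1 run on paired-end (BEDPE) fragments with duplicates kept, a q cutoff of 0.05 and no control file. The deposited pileup is the fragment coverage (signal) at a summit, unscaled. The deposited fold enrichment is a ratio to local background within 10 kb, and q is deposited as −log10 q. Without a control, open chromatin cut regardless of antibody can be called, which was not tested. Depth was 14284532 to 23992352 fragments per library.

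Peaks sharing at least 1 bp were merged. Genes and starts came from GENCODE M21, and no peak passed the end of a GRCm38 chromosome. Log2 pileup per 1000000 fragments (FPM) was fitted with limma 3.58.1 (R 4.3.3, trended eBayes, Benjamini-Hochberg over all regions, threshold 0.05), tested on simulated data first. Counts of peaks were compared by exact permutation with scipy 1.17.1. Alternatives were the promoter distance, flank, q cutoff, list size, scaling, replicate block and leaving out libraries. The members and lists were chosen with earlier results of these data known. One gene of the tract list is not reported here. For each gene the own-promoter region of highest mean pileup and the distal region found in most lists were described. RefSeq promoter sequences (GRCm38.p6) matched 5 of 10 members (*Gata2*, *Nr2f2*, *Tbx18*, *Tcf21*, *Emx2*), and not *Gata4*, *Gata6*, *Wt1*, *Osr1* or *Osr2*. Genome sequence was read with pysam 0.24.0.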

Additional observations from a re-analysis of the deposited data

How the results depend on the processing

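The count of members with an own-promoter peak in all 3 PBRM1 lists moved from 5 to 1 with a −log10 q of at least 5, and leaving out each library gave 5 to 5. For BRG1 the count of 3 became 3 to 5 on leaving out each library. The difference in peaks per library (-3.0) became 0 with a −log10 q of at least 5, -0.667 (exact p = 1.0) with an equal number of peaks per list, -6.33 (exact p = 0.3) with a flank of 50 kb, and -5.0 to -1.5 on leaving out each library. In the main fit 3 of 3 member regions were higher for BRG1, beside 52.9% of all regions. This count became 1 of 3 after centering on the library median (2.45% of all regions) and 0 of 3 on fold enrichment (10.7%). Under the stricter q cutoff only the *Nr2f2* region had a value, and BRG1 was higher there, as at 70.2% of all regions. Leaving out each library gave 1 to 2, with changing numbers of tested member regions. These were 2 of 6 without BRG1 replicate 2, 1 of 4 without BRG1 replicate 3 and 1 of 3 without PBRM1 replicate 3. The shares over all regions were not taken for these fits, so the counts are not read as a result about the members. No member region was higher for PBRM1 under any of these settings (0 to 0). Such regions were rare in the genome (0.413% in the main fit, 2.24% after centering, 0.218% on fold enrichment), so this count says little.

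The median difference of member regions (-0.54) was -0.073 after centering, -0.16 on fold enrichment, -0.041 after centering over regions with at least 2 lists of each antibody (added after the data were seen), and -0.64 to -0.46 on leaving out each library. At *Nr2f2* the difference was -0.001 after centering, -0.034 on fold enrichment and -0.066 over the added regions after centering, and leaving out any 1 library gave -0.51 to -0.44, with adjusted p from 0.0527 to 0.0866. At *Osr1* it was -0.073, -0.16 and -0.138 in the same order, and -0.64 to -0.37 on leaving out libraries; the call was lost without PBRM1 replicate 3, BRG1 replicate 2 or BRG1 replicate 3. At *Gata2* it was -0.45 on fold enrichment and -1.46 to -1.20 on leaving out libraries, and the call held without each. The cause of these shifts was not tested.

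Deviations of same-numbered PBRM1 and BRG1 libraries correlated at -0.029 to 0.004, so the numbers were not taken to pair libraries. With the replicate block 3 member regions remained higher for BRG1 (3 of 3), the median stayed at -0.54 and the peak count difference at -3.0 (sign-flip exact p = 0.5); genome-wide the block called 6589 regions higher for BRG1 in place of 6793, and it changed no call at the 3 member regions. In windows of 0.20 kb the motif counts of 40 regions were 1 for GATA (4.23% of all regions with a peak in all 6 lists), 1 for the NR2F element (9.07%) and 2 for T-box (6.25%). They were 6 for TEAD (11.1%), 2 for the homeodomain core (1.45%) and 6 for AP-1 (10.8%). The shares of TEAD and AP-1 moved from below to above those of all such regions. Among the 24 distal regions the counts were 4 for TEAD (beside 17.8%) and 3 for AP-1 (beside 22.6%), and among the 16 promoter regions 2 (beside 7.48%) and 3 (beside 4.41%). Of 111 alternative values in all, 78 kept their direction and side of the threshold or stayed within the allowed range. A missing peak means a level that was not called, not an absence. It also sets no upper limit on the pileup. BRG1 replicate 2 had 18 fragments at the *Osr2* promoter without a call, and a called peak of 9 fragments in the *Gata4* window.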
